A study of Homo sapiens with 6 samples.

Results

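The alpha subunits of heterotrimeric G proteins were followed in K562 cells in which lncRNA-IUR-5, a long noncoding RNA, had been depleted. The family was represented by 10 genes (GNAS, GNAI1, GNAI2, GNAI3, GNAZ, GNAQ, GNA11, GNA15, GNA12 and GNA13), which held 35 of the 109018 rows of the deposited table. A row is a RefSeq protein accession, so isoforms of a gene stand apart, and the reads of a gene's rows were summed. Of the 10 genes, 7 had reads in every library, and 29 of the 35 rows had at least 1 read. The members had been chosen by gene family with the results of this comparison in view, and selected on the measured fold change of a GNA13 row between sh-IUR-5 and sh-luc. Their differences between groups are therefore given as a description, with standard errors and without p-values.

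K562 is a human leukaemia line with erythroid features, grown from a chronic myeloid leukaemia in blast crisis and carrying the BCR-ABL fusion. Both groups were K562 lines stably expressing a short hairpin RNA (shRNA) from the pSIH vector. The sh-IUR-5 group (3 libraries, labelled sh-lncRNA-IIRX) carried a hairpin against lncRNA-IUR-5 and the sh-luc group (3 libraries) a hairpin against luciferase. The study describes its total RNA as taken from 3 independent groups of lines. Whether all libraries of a group came from separate experiments is not stated beyond this. The comparison asked how depletion of the lncRNA changes gene expression. A single hairpin was sequenced, and the lncRNA itself has no protein accession, so its level was not analysed here.

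Heterotrimeric G proteins carry signals from receptors that span the membrane several times to enzymes inside the cell. The alpha subunit binds GDP at rest and sits with a beta-gamma pair. An activated receptor makes it exchange GDP for GTP and let go of beta-gamma, and hydrolysis of GTP, sped up by RGS proteins, ends the signal. The classes differ in what they act on. Gs (GNAS) stimulates adenylyl cyclase and so raises cAMP, Gi (GNAI1, GNAI2, GNAI3, GNAZ) inhibits it, Gq (GNAQ, GNA11, GNA15) activates phospholipase C beta, and G12/13 (GNA12, GNA13) activates exchange factors of the small GTPase RhoA.

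The receptor reads the class largely from the C-terminal end of the alpha subunit. The last 30 coding bases of each gene before the stop codon are shown because they hold this class signature, with the fourth codon from the end in capitals (hg38, GENCODE release 44, coding strand, 5′ to 3′). In GNAI1, GNAI2 and GNAI3 this codon encodes the cysteine that pertussis toxin modifies.
GNAS: cgcatgcaccttcgtcagTACgagctgctc
GNAI1: aaaaataatctaaaagatTGTggtctcttt
GNAI2: aagaacaacctgaaggacTGCggcctcttc
GNAI3: aaaaacaacttaaaggaaTGTggactttat
GNAZ: cagaacaatctcaagtacATTggcctttgc
GNAQ: cagttgaacctgaaggagTACaatctggtc
GNA11: cagctcaacctcaaggagTACaacctggtc
GNA15: gcccgctacctggacgagATCaacctgctg
GNA12: caggagaacctgaaggacATCatgctgcag
GNA13: catgacaacctcaagcagCTTatgctacag

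GNAQ and GNA11 differed at 4 of these 30 bases, and GNA12 and GNA13 at 8. GNAZ, although counted with the Gi class, has an isoleucine codon where the other Gi genes have cysteine. The stretches lie at chr20:58910797-58910826 (GNAS), chr7:80217461-80217490 (GNAI1), chr3:50257658-50257687 (GNAI2), chr1:109592201-109592230 (GNAI3) and chr22:23123399-23123428 (GNAZ), all on the plus strand. Those of GNA11 (chr19:3121147-3121176) and GNA15 (chr19:3162987-3163016) are also on the plus strand. Those of GNAQ (chr9:77721326-77721355), GNA12 (chr7:2731184-2731213) and GNA13 (chr17:65014260-65014289) are on the minus strand. Longer identical stretches were few. The longest run of coding bases shared exactly was 47 between GNA12 and GNA13 and 35 between GNAS and GNAI3, and for GNAQ and GNA11 it was 26.

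Reads counted on rows ran from 21023739 to 23320543 per library in sh-luc and from 24325122 to 31481109 in sh-IUR-5. In both groups library 1 stood somewhat apart. The chi-square per gene between replicates was lowest between libraries 2 and 3, at 2.83 in sh-luc and 2.08 in sh-IUR-5, and reached 5.34 and 9.56 against library 1. The library descriptions give library 1 the number 1 and both libraries 2 and 3 the number 2. This description number is the library number of the fits below. Values within each description number are given beside the results they touch, and number 1 covers only library 1 of each group. All 9 K562 markers (among them GATA1, KLF1 and fetal and embryonic globins) were at 1 RPKM (reads per kilobase of row, relative to all reads counted in the library) or more in every library. Their summed level ran from 20252 to 22632 RPKM in sh-luc and from 16129 to 16815 RPKM in sh-IUR-5, and the part of this difference in the results below was not tested. The 7 markers of lymphoid cells, fibroblasts, liver and endothelium summed to 0.641 to 1.25 RPKM in sh-luc and 0.516 to 0.784 RPKM in sh-IUR-5, with MS4A1, PAX5 and CDH5 at 0 throughout.

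Levels of the alpha subunits differed widely within the cells. In sh-luc the summed RPKM of GNAS was 233 ± 11.8 (SD, n = 3), that of GNAI3 82.6 ± 5.09 and that of GNAI2 36.8 ± 2.93. GNA11 stood at 7.87 ± 0.434, GNA12 at 3.81 ± 0.540, GNAQ at 3.004 ± 0.0695 and GNA13 at 2.43 ± 0.866 RPKM. Each gene's 3 sh-luc libraries lay apart from those of the next gene in this order, except for GNAQ and GNA13, whose libraries overlapped. Thus Gs and Gi transcripts made up most of the summed level of the family in K562, as the plot of levels by library shows. In sh-IUR-5 the first 4 places were the same, with GNAS at 266 ± 15.2, GNAI3 at 126 ± 5.01, GNAI2 at 39.99 ± 6.33 and GNA11 at 10.3 ± 1.19 RPKM. GNA13 moved from the last of the 7 measured genes to the fifth place at 8.996 ± 0.0902, ahead of GNAQ at 7.11 ± 1.27 and GNA12 at 6.04 ± 1.19. The sh-IUR-5 libraries of GNA12 overlapped those of GNAQ. GNAS and GNAI2 are spread over many rows, so their summed levels depend on how reads that fit several rows were shared out, a rule not given in the sources used here. By the RPKM of its row with most reads alone, GNAS stood at 29.8 in sh-luc and 35.0 in sh-IUR-5, below GNAI3 in both groups, and GNAI2 at 10.02 and 10.6.

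The other 3 members were at or near 0. GNAI1, the Gi subunit best known from brain, had no read in any library. GNAZ had 1 read in sh-IUR-5 library 2 and 0 in the other libraries. GNA15, the Gq subunit known from blood cells, had 2 reads in sh-IUR-5 library 1, 1 in library 3 and 0 in all the rest. A count of 0 allows up to 3 reads, which is 0.0953 to 0.143 RPKM for a row of 1 kb at these depths, so lower levels were not detectable. This limit covers counting error only.

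Before differences are given, the background of the comparison matters. With edgeR's quasi-likelihood test and Benjamini-Hochberg adjustment, 10157 of 26167 features (gene sums, or single rows without a symbol) passed the threshold, which is 38.8%. In each direction this was 19.4%, with 5088 features higher and 5069 lower in sh-IUR-5. Scaled to total reads in place of TMM (trimmed mean of M-values, which sets the scale from the bulk of genes), 10197 were higher and 2119 lower, because the median feature then moved from 0.018 to 0.26 on the log2 scale. The groups did not overlap in 49.9% of features, and all 3 sh-IUR-5 libraries lay above all 3 sh-luc libraries in 25.5%. Of the 26167 features 10706 were genes with a symbol. In a fit of the 10587 genes with a coding GC value alone, 4993 passed. Of the 7 tested members 4 passed, all higher, and the same number did not overlap. Since the members were chosen with this comparison in view, nothing is read from that count. The same holds for any single member that passes or does not pass in the settings below. Their median log2 fold change was 0.37, beside 0.018 over all features. In bulk RNA, a change in the number of cells that express a gene and a change in RNA per cell cannot be told apart.

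GNA13 had the largest difference of the family. Its reads were 34, 66 and 59 in sh-luc libraries 1 to 3 and 282, 213 and 219 in sh-IUR-5 libraries 1 to 3. As CPM (counts relative to the library's TMM-scaled total) these were 1.59, 3.41 and 3.04 in sh-luc, and 7.99, 8.32 and 8.33 in sh-IUR-5. The sh-IUR-5 libraries were nearly alike, the groups lay far apart, and the spread was mostly that of sh-luc, whose library 1 was lowest. The log2 fold change was 1.63 (SE 0.18), or 3.09-fold. Within description number 1 (library 1 of each group) it was 2.33, and within description number 2 (libraries 2 and 3) it was 1.37. Without sh-luc library 1 it was 1.35, the lowest value with any library left out.

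The GNA13 gene lies at chr17:65009289-65056740 on the minus strand, with RGS9 as a coding neighbour, which had 1 read in all libraries together. Its reads fell on 2 rows. NP_006563.2 is the full reading frame of 1134 bases, stop codon included. NP_001269354.1 is a frame of 849 bases that is wholly contained in the longer, starting 285 bases (95 codons) further in and lacking the N-terminal end of the protein. The first 30 bases of this short frame lie at chr17:65053697-65053726 in the second coding exon of 4, and are shown with the start codon in capitals because only bases before this point belong to the long row alone.
GNA13 short frame: ATGagggtgctggttgatgctcgagagaag

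The long GNA13 row held 20, 37 and 43 reads in sh-luc and 156, 108 and 127 in sh-IUR-5, or 1.36 ± 0.543 against 4.27 ± 0.317 RPKM. The short row held 14, 29 and 16 reads in sh-luc and 126, 105 and 92 in sh-IUR-5, or 1.07 ± 0.471 against 4.73 ± 0.353 RPKM. On both rows the lowest sh-IUR-5 library lay above the highest sh-luc library. The log2 fold changes of the single rows were 1.47 (SE 0.21) for the long and 1.96 (SE 0.22) for the short frame. The short row took 41.2%, 43.9% and 27.1% of the gene's reads in sh-luc and 44.7%, 49.3% and 42.0% in sh-IUR-5, and these shares overlapped between the groups. An even split of reads over the bases that both frames share would put 37.4% on the short row. Since every base of the short frame is also in the long one, these rows do not tell the isoforms apart, and the difference between their fold changes was not tested.

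**Figure D1:**
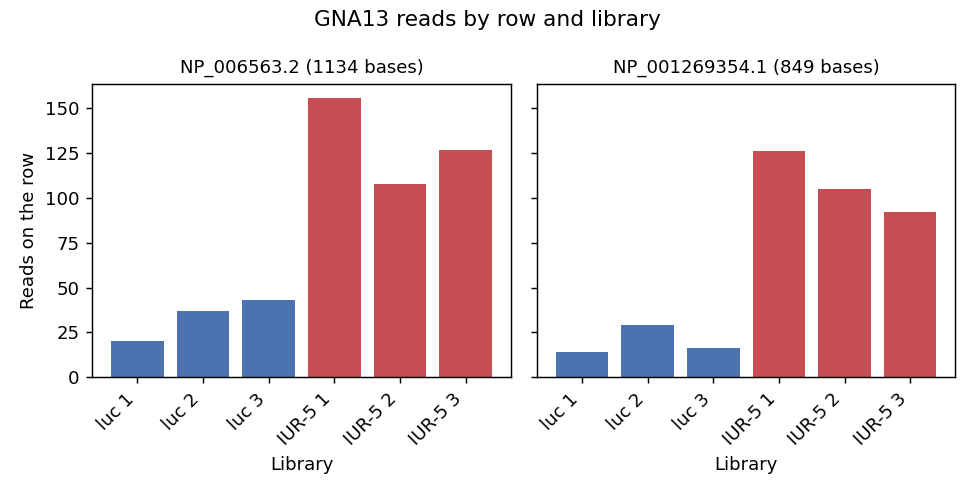
Reads counted on each of both GNA13 rows in each library, from sh-luc (blue) and sh-IUR-5 (red). Every bar of sh-IUR-5, from 92 to 156 reads, is taller than every bar of sh-luc, from 14 to 43 reads.

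GNA12, the other subunit of the G12/13 class, lies on chromosome 7 and differed less. Its reads were 103, 72 and 90 in sh-luc and 243, 144 and 135 in sh-IUR-5. The CPM values were 4.81, 3.72 and 4.63 in sh-luc, and 6.88, 5.63 and 5.13 in sh-IUR-5. The groups did not overlap, but the lowest sh-IUR-5 library stood close to the highest of sh-luc. The log2 fold change was 0.43 (SE 0.15), with 0.52 and 0.36 within description numbers 1 and 2. GNA12 stayed past the threshold in only 2 of the 6 fits that left out a library, with log2 fold changes of 0.29 to 0.51. It was lost without sh-luc library 2 (0.33), without sh-luc library 3 (0.47), without sh-IUR-5 library 1 (0.29) and without sh-IUR-5 library 2 (0.46). It also did not pass with DESeq2 (0.41) or with its row with most reads (0.32). Of its 4 rows, NP_031379.2 with the longest frame of 1146 bases held 36.3% of the reads and stood at 1.36 ± 0.119 RPKM in sh-luc and 1.97 ± 0.213 in sh-IUR-5. NP_001280021.1 held 29.2%, with 1.02 ± 0.324 and 1.75 ± 0.195 RPKM. The remaining rows, NP_001269370.1 and NP_001269369.1, held 18.7% and 15.8% and were at 0.796 ± 0.199 against 1.196 ± 0.429 RPKM and at 0.631 ± 0.0368 against 1.12 ± 0.406 RPKM.

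In the Gq class, GNAQ stood out. Its single row (NP_002063.2, 1080 bases) had 75, 71 and 67 reads in sh-luc and 290, 160 and 179 in sh-IUR-5. The CPM values were 3.50, 3.66 and 3.45 in sh-luc and 8.21, 6.25 and 6.81 in sh-IUR-5. The sh-luc libraries were almost equal, the sh-IUR-5 libraries were all higher, and library 1 was the highest of them. The log2 fold change was 1.01 (SE 0.14), or 2.01-fold, with 1.23 and 0.87 within description numbers 1 and 2. Left-out libraries moved it between 0.89 and 1.09.

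GNA11, which couples to the same receptors and to phospholipase C beta as GNAQ does, did not separate the groups. Its single row (NP_002058.2, also 1080 bases) had 187, 191 and 179 reads in sh-luc and 326, 307 and 258 in sh-IUR-5, or 8.73, 9.86 and 9.22 against 9.23, 11.99 and 9.81 CPM. The groups overlapped, and the log2 fold change was 0.15 (SE 0.12). Under scaling to total reads it was 0.39 and passed the threshold. It also passed with limma on RPKM, and once trends with GC content and length had been removed (0.33). GNA11 and GNA15 are neighbours on chromosome 19 and GNAQ has GNA14 beside it on chromosome 9, but GNA14 had no read.

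In the Gi class, GNAI3 was higher and GNAI2 was not. GNAI3 (NP_006487.1, 1065 bases), a Gi subunit found in most tissues, had 1968, 2009 and 1793 reads in sh-luc and 4301, 3113 and 3408 in sh-IUR-5. In CPM this was 91.9, 104 and 92.3 against 122, 122 and 130. The groups did not overlap. Its log2 fold change of 0.37 (SE 0.077) was small, and it was 0.40 and 0.36 within description numbers 1 and 2.

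GNAI2, the subunit best known from immune cells and platelets, had 887, 697 and 788 reads in sh-luc and 1460, 876 and 862 in sh-IUR-5. In CPM these were 41.4, 35.97 and 40.6 against 41.3, 34.2 and 32.8, and the groups overlapped. The log2 fold change was -0.12 (SE 0.098), and it changed sign to 0.12 under scaling to total reads. The 6 GNAI2 rows held 12.3% to 29.3% of its reads each, with single-row log2 fold changes from -0.20 to 0.032. The row with most reads, NP_002061.1, was at 10.02 ± 1.93 RPKM in sh-luc and 10.6 ± 2.01 in sh-IUR-5.

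GNAS, the gene of Gs, is an imprinted locus with several promoters and proteins. Its reads were 6769, 5937 and 6315 in sh-luc and 11006, 7610 and 7925 in sh-IUR-5. The CPM values of 316, 306 and 325 in sh-luc and 312, 297 and 301 in sh-IUR-5 overlapped. The log2 fold change was -0.058 (SE 0.069), with the sign turning to 0.18 under scaling to total reads, where it passed the threshold. GNAS filled 15 rows. The row NP_057676.1, the neuroendocrine secretory protein NESP55, and both rows of 1881 bases had no reads. The 12 rows with reads had log2 fold changes from -0.12 to 0.13. Of these, NP_536351.1, at 1143 bases, held the most reads (12.03% of the gene) and stood at 29.8 ± 1.73 RPKM in sh-luc and 35.0 ± 2.51 in sh-IUR-5. NP_001070957.1, a frame of 1140 bases, held 10.1% and stood at 26.0 ± 1.12 and 28.7 ± 2.22 RPKM. The 3 rows of 3072 to 3117 bases, the length of the extra-large form, were at 7.48 to 8.66 RPKM in sh-luc and 8.18 to 9.70 in sh-IUR-5. The coding sequence of 1188 bases shares an exact run of 1047 bases with that of 3117 bases. These levels therefore do not show which form the reads came from.

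**Figure D2:**
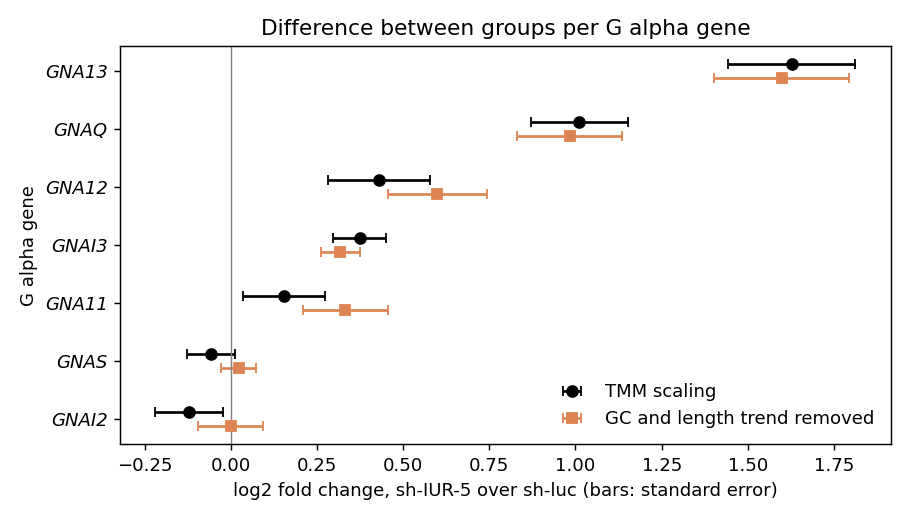
Log2 fold change (sh-IUR-5 over sh-luc) of each measured alpha subunit gene with TMM scaling (circles) and once trends with GC content and length had been taken out of each library (squares). Bars are standard errors from 6 libraries. GNA13 at 1.63 and GNAQ at 1.01 lie furthest to the right, and GNAS and GNAI2 lie near 0.

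Expressed as shares of the family's summed RPKM, the make-up of the alpha subunits differed between the groups. Gs took 63.1 ± 1.55% in sh-luc and 57.3 ± 0.226% in sh-IUR-5 (SD, n = 3). Gi took 32.3 ± 1.37% and 35.7 ± 0.503%. The Gq class took 2.94 ± 0.180% and 3.76 ± 0.207%, and the G12/13 class 1.69 ± 0.129% and 3.24 ± 0.132%. G12/13 thus remained a small part of the family in both groups. These shares do not depend on how libraries were scaled to each other, but they rest on summing rows. By its row with most reads alone GNAS stood below GNAI3 (29.8 against 82.6 RPKM in sh-luc and 35.0 against 126 in sh-IUR-5), so that Gi, not Gs, would then lead.

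GC content of the coding sequence moved with the fold changes of all genes. The median log2 fold change was 0.18 in genes of 40 to 45% coding GC and -0.13 in those above 65%. GNAI3 has 42.4% coding GC, GNAQ 47.7% and GNA13 48.4%, whereas GNAS has 55.2%, GNAI2 56.2%, GNA11 60.2% and GNA12 60.5%. The median was 0.11 in the GC class of GNA13 and GNAQ, 45 to 50%. After each library's trends on GC and length had been removed, GNA13 was at 1.60 (SE 0.20), GNAQ at 0.98 (SE 0.15), GNA12 at 0.60 (SE 0.14), GNA11 at 0.33 (SE 0.12) and GNAI3 at 0.32 (SE 0.056). On that scale GNAS was at 0.022 and GNAI2 at -0.00071. The 5 members above them passed the threshold, beside 4791 of all 10587 genes with a coding GC value. Nothing is read from that count.

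The genes whose pattern over the 6 libraries was most like that of GNA13 were found by Pearson correlation of log2 CPM among 9494 gene sums. They were MTMR2 (r = 0.999), a myotubularin-family lipid phosphatase, FUBP3 (0.998), a single-stranded nucleic acid binding protein, the row XP_005247133.1 (0.998), PAPOLA (0.998), a poly(A) polymerase, and AGPS (0.996), an enzyme of ether lipid synthesis. The points share libraries and a difference between groups, so the correlations are a description over 6 points. Their log2 fold changes, from 0.24 in PAPOLA to 0.68 in MTMR2, were smaller than that of GNA13.

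The partners and targets of the alpha subunits were taken from 11 lists of textbook members, with 106 genes in all, of which 105 were in the table. LPAR2 was not analysed here. Of these, 41 were tested and 14 passed the threshold (34.1%, beside 38.8% of all features), 11 higher and 3 lower in sh-IUR-5. The median log2 fold change of the 41 was 0.043. All list genes have a symbol, whereas only 10706 of the 26167 features do. In a fit of the 10587 genes with a coding GC value alone, 4993 passed, 2580 higher and 2413 lower. In that fit 15 list genes passed, 12 higher and 3 lower. The counts per list below stand beside 19.4% of all features called in each direction, a background that includes rows without a symbol. No list was tested as a set.

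Among the 4 tested G beta subunits, 1 rose and 1 fell. GNB4 rose, with 104, 153 and 99 reads in sh-luc and 363, 227 and 285 in sh-IUR-5 (log2 fold change 0.75, SE 0.16, edgeR adjusted p = 0.00154). GNB2, the most abundant at 201 ± 15.2 RPKM in sh-luc, fell to 181 ± 13.1 RPKM (-0.38, SE 0.078, edgeR adjusted p = 0.00125). Under scaling to total reads the GNB2 value was -0.15 and no longer passed. GNB1, at 88.7 ± 2.25 and 116 ± 2.96 RPKM, did not pass (0.15, edgeR adjusted p = 0.0990), nor did GNB3 (-0.34, edgeR adjusted p = 0.102). GNB1 passed as higher with the GC and length trends removed (0.28), under scaling to total reads (0.39) and with a term for the library number (0.16). Neither of the tested G gamma subunits, of 12 listed, passed. GNG5 stood at 468 ± 35.9 RPKM in sh-luc and 504 ± 25.8 in sh-IUR-5 (-0.13, SE 0.083), with the sign turning to 0.11 under scaling to total reads, and GNG10 at 35.1 ± 3.997 and 50.005 ± 5.75 (0.28, SE 0.12). With the GC and length trends removed both passed as higher, GNG10 at 0.83 (edgeR adjusted p = 0.000558) and GNG5 at 0.29 (edgeR adjusted p = 0.00314). GNG10 also passed under scaling to total reads (0.52) and with a term for the library number (0.28). In the TMM fit, by unadjusted edgeR p, 1 of them was under 0.05, DESeq2 called 0 and limma on RPKM 1. None of the 6 other alpha subunit genes reached the minimum level. GNAT2, next to GNAI3 on chromosome 1, had the most reads of them, with 40 in all libraries together.

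Among regulators that act on the alpha subunit itself, 2 of 5 tested RGS proteins fell and none rose. RGS3, a GTPase-activating protein for Gi and Gq, had 544, 424 and 423 reads in sh-luc and 378, 320 and 308 in sh-IUR-5, although the sh-IUR-5 libraries were deeper. Its log2 fold change was -0.99 (SE 0.10, edgeR adjusted p = 3.85e-06). RGS10 fell by 0.40 on the log2 scale (SE 0.087, edgeR adjusted p = 0.00206), and under scaling to total reads it was at -0.16 and did not pass. None of the 4 tested chaperones and receptor-independent regulators passed, among them RIC8A, the folding chaperone of several alpha subunits, at -0.027 (SE 0.079). None of the 5 tested receptor kinases and arrestins passed, with log2 fold changes from -0.15 to 0.14. At an unadjusted edgeR p under 0.05 there were 1 regulator and 0 kinases or arrestins. DESeq2 called 0 in both lists, and limma on RPKM called 1 and 2.

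Of 25 listed receptors 5 were tested and 2 rose. F2R, the thrombin receptor PAR1, which couples to Gq and G12/13, had 44, 36 and 32 reads in sh-luc and 115, 66 and 83 in sh-IUR-5 (0.70, SE 0.17, edgeR adjusted p = 0.00534). PTGER3, the Gi-coupled prostaglandin receptor EP3, had 103, 95 and 78 reads against 274, 147 and 141 (0.47, SE 0.16, edgeR adjusted p = 0.0262). PTGER3 no longer passed without sh-luc library 3 (0.39) or without sh-IUR-5 library 1 (0.28), with DESeq2 (0.45, DESeq2 adjusted p = 0.0503) or with its row with most reads (0.29).

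On the cAMP side, ADCY9 was the only 1 of 3 tested adenylyl cyclases to pass. It had 98, 99 and 122 reads in sh-luc and 291, 176 and 199 in sh-IUR-5 (0.51, SE 0.14, edgeR adjusted p = 0.00742). ADCY3 (0.084, SE 0.091) and ADCY7 (0.21, SE 0.091) did not pass, and both were more abundant than ADCY9 per length. ADCY7 passed with the GC and length trends removed (0.22), under scaling to total reads (0.45) and with a term for the library number (0.21), and ADCY3 passed under scaling to total reads (0.32). Of 6 tested genes of the cAMP-dependent kinase and CREB list, 4 rose. PRKAR2B, a regulatory subunit of the kinase, went from 116 ± 3.94 to 214 ± 19.1 RPKM (0.65, SE 0.079, edgeR adjusted p = 1.74e-05). The other 3 were PRKAR2A at 0.58, the transcription factor CREB1 at 0.57 and PRKAR1A at 0.52, and regulatory subunits hold the catalytic subunit inactive without cAMP. PRKAR1B, the remaining regulatory subunit, did not pass and was on the other side of 0 (-0.24, SE 0.10, edgeR adjusted p = 0.0678). PRKACA, a catalytic subunit, was at 0.14 (SE 0.097, edgeR adjusted p = 0.268). PRKAR2A no longer passed when its most abundant row was used in place of the sum (0.32).

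On the Gq side only PLCB3 of 4 phospholipase C beta genes was tested, and it did not pass with edgeR (adjusted or unadjusted), DESeq2 or limma on RPKM. It stood at 8.72 ± 0.489 RPKM in sh-luc and 9.77 ± 1.87 in sh-IUR-5, with a log2 fold change of -0.099 (SE 0.10) that turned to 0.14 under scaling to total reads.

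On the G12/13 side, 3 of 6 tested effectors rose. ARHGEF12, known as LARG, an exchange factor that links G12/13 to RhoA, had 691, 668 and 616 reads in sh-luc and 2184, 1315 and 1516 in sh-IUR-5. It went from 6.75 ± 0.241 to 13.8 ± 1.72 RPKM (0.80, SE 0.088, edgeR adjusted p = 7.3e-06) and passed with any library left out. ARHGEF11, the related PDZ-RhoGEF, had 372, 388 and 367 reads against 772, 665 and 576 (0.31, SE 0.099, edgeR adjusted p = 0.0223). RHOA itself went from 304 ± 7.42 to 409 ± 3.74 RPKM (0.19, SE 0.070, edgeR adjusted p = 0.0376). ARHGEF11 no longer passed without sh-luc library 1 (0.25), sh-luc library 3 (0.31) or sh-IUR-5 library 2 (0.22), nor with the GC and length trends removed (0.24). RHOA passed in only 1 of the 6 fits with a library left out, that without sh-IUR-5 library 1, while its log2 fold change stayed between 0.17 and 0.22. RHOA also did not pass with DESeq2 (0.18) or with no minimum level (0.19). ARHGEF1, the third exchange factor of this kind, was at -0.12 (SE 0.092), and the kinases ROCK1 and ROCK2, which RhoA activates, were at -0.14 (SE 0.073) and -0.18 (SE 0.090) and did not pass. The signs of ARHGEF1, ROCK1 and ROCK2 turned positive under scaling to total reads (0.12, 0.099 and 0.050). With the GC and length trends removed, ROCK1 (-0.34, edgeR adjusted p = 0.00086) and ROCK2 (-0.42, edgeR adjusted p = 0.00101) passed as lower, and ROCK2 also passed with a term for the library number (-0.18). AKAP13 had no read.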

How the data were processed

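Total RNA was sequenced from K562 cells expressing sh-IUR-5 or sh-luc, 3 libraries each. Group and number come from the sample titles. The study says that its lncRNA-IUR-5 knockdown is this deposit, in which the labels write lncRNA-IIRX. Per the labels and the submitters' processing notes, the authors used CASAVA 1.8, Trimmomatic 0.32, Bowtie2 2.1.0 and SAMtools 0.1.19 with hg38. The rule for reads that fit several rows, and whether strand was used, are not given in the sources used here. The authors deposited read counts per RefSeq protein accession, not normalized, and RPKM, which in every row is the read count over the row's length and the library's total. A deposited table of the authors' own comparison (pooled values, fold changes, p-values and q-values) was not used.

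Accessions were matched to symbols with the RefSeq gene table of GRCh38.p14, version ignored (70521 rows, 64.7%), and counts were summed over the rows of a symbol. Rows without a symbol stayed as features. edgeR 4.0.16 (R 4.3.3) with TMM factors and the quasi-likelihood test, two-sided, was run on features with a mean CPM of at least 1, and on single rows with a mean RPKM of at least 1 (38204 rows), with p-values adjusted by Benjamini-Hochberg and called at 0.05. Levels between genes are RPKM, since they are per length. Named were all members, every GNA13 row and each other member row with at least 10% of its gene's reads, the largest rise and the largest fall of each list, and every tested gene of the lists of beta, gamma, adenylyl cyclase, PLCB and G12/13 effector genes. Further genes that passed, RIC8A, PRKACA, PRKAR1B, GNAT2, the member rows below that share and the genes at 0 were named after their values were seen. The members and lists were chosen with earlier results of these data known. The p-values measure the spread between these libraries.

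Alternatives were DESeq2 1.42.0, total-read scaling, no minimum, a replicate block, a term for the number in the library descriptions, each library left out, the row with most reads, and limma 3.58.1 on log2(RPKM + 0.1), with pseudocounts 1 and 0.01. Removal of each library's GC and length trends (mgcv 1.9.3) was added after the data were seen, on the 98.9% of tested symbols with a coding GC value. Counts simulated for the 26167 features with 200 changed gave back 24 of 55 at a log2 change of 0.5, 64 of 71 at 1 and 74 of 74 at 2, with 5 false calls. In the data 38.8% of features passed, far more than were changed here, and no difference by library number was simulated. Recovery in the data may therefore differ. Member sequences come from hg38 and GENCODE release 44.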

Additional observations from a re-analysis of the deposited data

How the results depend on the processing

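Of 661 values under alternatives, 535 were classed as unchanged. Log2 fold changes of members and GNA13 rows were so classed if they moved by less than the replicate spread, whatever their side of the threshold. Those of pathway genes were so classed if they kept their direction and side of the threshold. Counts of features were classed by their total alone. That hid a shift under scaling to total reads, from 5088 higher and 5069 lower features to 10197 and 2119. GNA13, GNAQ, GNAI3, GNA12 and GNA11 stayed positive in every setting run. Scaling to total reads gave GNAS 0.18, GNAI2 0.12, GNAI3 0.61, GNAQ 1.25, GNA11 0.39 and GNA12 0.67. Past the threshold were then 6 members and 21 pathway genes, beside 12316 of 26167 features, of which 10197 were higher. limma on log2(RPKM + 0.1), in the same gene order, gave 0.19, 0.11, 0.61, 1.20, 0.38 and 0.64, and with a pseudocount of 0.01 it gave 0.19, 0.11, 0.61, 1.22, 0.38 and 0.66. With a pseudocount of 1 it gave 0.19 for GNAS, 0.11 for GNAI2, 0.60 for GNAI3, 0.35 for GNA11 and 1.49 for the short GNA13 row. RPKM is itself scaled to total reads, which shifts these values up together. The row with most reads put GNAS at 0.0038. DESeq2 called 8155 features, 3 members and 12 pathway genes.

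After removal of GC and length trends 4791 of the genes with a GC value passed, against 4993 of those genes before it, with GNAS at 0.022 and GNA11 at 0.33. A term for the library number gave 22 pathway genes, beside 12777 of 26167 features. Within description number 1, which is library 1 of each group, GNAQ was at 1.23 and GNA13 at 2.33. Log2 fold changes that turned positive under scaling to total reads were GNG5 at 0.11, PLCB3 at 0.14, ARHGEF1 at 0.12, ROCK1 at 0.099 and ROCK2 at 0.050. Under limma they were GNG5 at 0.11 for each pseudocount, PLCB3 at 0.15, 0.14 and 0.15, ARHGEF1 at 0.11, 0.10 and 0.11, ROCK1 at 0.096, 0.092 and 0.097, and ROCK2 at 0.052, 0.051 and 0.052 for pseudocounts of 0.1, 1 and 0.01. GNG5 was at 0.29 with the trends removed. Apart from the scaling, the cause of these moves was not tested.

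Leaving out each library in turn gave 7982 to 9583 features, 3 to 4 members and 11 to 17 pathway genes. Log2 fold changes then ran from 1.35 to 1.84 for GNA13, 0.89 to 1.09 for GNAQ, 0.29 to 0.51 for GNA12, 0.34 to 0.43 for GNAI3, 0.033 to 0.24 for GNA11, -0.079 to -0.036 for GNAS and -0.23 to -0.060 for GNAI2. They ran from 1.16 to 1.72 for the long and from 1.72 to 2.37 for the short GNA13 row. GNAI2 passed, lower, without sh-IUR-5 library 1 (-0.23).

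Deviations of libraries 1, 2 and 3 of sh-luc correlated with those of the same library of sh-IUR-5 at 0.40, 0.13 and -0.0061. These libraries were not taken as pairs, and not every library correlated best with its namesake. Library 1 of sh-luc correlated at -0.24 and -0.28 with sh-IUR-5 libraries 2 and 3. Library 1 of sh-IUR-5 correlated at -0.35 and -0.10 with sh-luc libraries 2 and 3. Between libraries 2 and 3 across the groups, values ran from -0.0061 to 0.32. The main fit held no term for the library number. With a replicate block 12044 features, 4 members and 20 pathway genes passed, among them GNG10 (0.28) and ADCY7 (0.21) as higher and ROCK2 (-0.18) as lower, none of which passed without it. With the block and the trends removed, 5864 genes and 23 pathway genes passed, with GNAS at 0.022, GNA11 at 0.33 and GNG5 at 0.30.

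With 34 to 66 reads in sh-luc, GNA13 had the widest relative spread of the measured members, and for GNAI1, GNAZ and GNA15 depth gives an upper limit only.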
